A study of Mus musculus with 4 samples.

Results

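The regions described here are the accessible promoters that were called in limb cells of mouse embryos at embryonic stage E10.5 and had no counterpart at E11.5. They are autosomal regions of the E10.5 list that lie within 1 kb of the start site of a protein-coding gene and overlap no region of the E11.5 list by even 1 bp. There were 1921 of them among 13547 autosomal E10.5 promoter regions, a share of 14.2% (95% Wilson interval 13.6 to 14.8%), and among 97739 autosomal E10.5 regions in all. They were thus selected on the presence of a called region at one stage and its absence at the next, so their number is a description and was not tested. They are called E10.5-only promoter regions below, and the other 11626 are called overlapping promoter regions.

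The data are ATAC-seq profiles, in which the Tn5 transposase inserts adaptors where chromatin is open, from cells of fore- and hindlimbs. All 4 samples came from wild-type embryos, 2 per stage, and the labels name neither strain nor sex. The protocol calls the earlier stage E10, and it describes trypsin dissociation and paraformaldehyde fixation before lysis and tagging. The study's design text concerns the elements that keep En1 expressed in the limb. Each stage has 1 deposited list, named for both of its replicates, of 99427 regions for E10.5 and 37548 for E11.5, so no spread between replicates and no test between the stages could be had. The depth behind the lists is unknown. Each region carries the authors' signal value, which grows with width and starts just above 200, and a −log10 p-value of its own. The intervals given reflect counting error alone, with neighbouring regions taken as independent.

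A promoter is the stretch of DNA around the start site of a gene where RNA polymerase is loaded. Promoters of genes that every cell uses are usually rich in CpG dinucleotides and open in all cell types, while many promoters of tissue-specific genes open only in the cells that use them or are held by Polycomb proteins until needed. The limb bud is mainly mesenchyme under a thin ectoderm whose distal rim, the apical ridge, secretes FGF and Wnt signals, and it holds vessels, blood, nerve fibres and migrating muscle precursors as minor cell types. In such a mixed sample, fewer cells of a type and less open chromatin per cell cannot be told apart.

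Promoters rich and poor in CpG occur among the E10.5-only regions, and 4 are printed to show the contrast, with each CpG in capitals. How common each is among these regions was not analysed here. They are the 250 bases before the start site, 5′ to 3′ on the gene's strand, from RefSeq on GRCm38.p6. The promoters of Wnt7a (chr6:91411354-91411603, minus strand), the dorsal ectoderm signal of the limb, and of Hoxa5 (chr6:52204588-52204837, minus strand), a homeobox gene of anterior position, hold 34 and 28 CpG. Those of Lgals3bp (chr11:118401960-118402209, minus strand), a secreted galectin-binding glycoprotein, and of Serpinf1 (chr11:75422624-75422873, minus strand), a secreted serpin that inhibits vessel growth, hold 2 each. The median over 20085 promoters of protein-coding genes was 10, with quartiles of 3 and 19.
Wnt7a: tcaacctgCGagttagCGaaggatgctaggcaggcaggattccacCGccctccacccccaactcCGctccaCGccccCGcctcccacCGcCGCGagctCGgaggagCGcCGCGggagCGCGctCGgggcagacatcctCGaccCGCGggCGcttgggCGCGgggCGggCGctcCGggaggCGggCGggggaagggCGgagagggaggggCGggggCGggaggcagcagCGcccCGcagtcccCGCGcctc
Hoxa5: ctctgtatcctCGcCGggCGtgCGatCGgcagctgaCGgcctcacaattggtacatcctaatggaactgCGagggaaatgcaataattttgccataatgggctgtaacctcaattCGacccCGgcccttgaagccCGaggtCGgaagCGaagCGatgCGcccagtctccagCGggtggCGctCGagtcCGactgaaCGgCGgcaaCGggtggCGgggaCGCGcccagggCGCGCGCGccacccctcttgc
Lgals3bp: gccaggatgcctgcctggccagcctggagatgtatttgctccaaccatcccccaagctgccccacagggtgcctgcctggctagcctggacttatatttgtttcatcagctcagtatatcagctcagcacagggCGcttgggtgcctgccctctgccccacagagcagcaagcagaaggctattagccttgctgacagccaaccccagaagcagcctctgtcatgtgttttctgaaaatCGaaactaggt
Serpinf1: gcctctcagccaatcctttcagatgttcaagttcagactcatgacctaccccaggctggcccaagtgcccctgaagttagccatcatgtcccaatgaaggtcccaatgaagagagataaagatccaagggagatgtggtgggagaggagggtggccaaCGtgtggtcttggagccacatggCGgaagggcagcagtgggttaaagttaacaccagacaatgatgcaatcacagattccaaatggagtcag

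A further 3 promoters of structural genes of muscle and cartilage are printed with a known promoter motif in capitals. Actc1 (chr2:114052876-114053125, minus strand), the cardiac actin that embryonic skeletal muscle also uses, has a CArG box 47 bases before its start, the motif that serum response factor binds. A CArG box on either strand is found in 1.29% of the 20085 promoters. Des (chr1:75360042-75360291, plus strand), the intermediate filament of muscle, has the E-box CAGCTG 36 bases before its start, a motif of myogenic helix-loop-helix factors that 12.2% of promoters hold. Chad (chr11:94564797-94565046, plus strand), a leucine-rich protein of cartilage matrix, has a TATA box, TATAAA, 28 bases before its start, and 11.7% of promoters hold that motif on either strand. Each promoter is marked for 1 motif, and TATAAA can lie within a CArG box. The printed promoters were chosen after their values had been seen. A match describes the letters and is no evidence that a factor was bound.
Actc1: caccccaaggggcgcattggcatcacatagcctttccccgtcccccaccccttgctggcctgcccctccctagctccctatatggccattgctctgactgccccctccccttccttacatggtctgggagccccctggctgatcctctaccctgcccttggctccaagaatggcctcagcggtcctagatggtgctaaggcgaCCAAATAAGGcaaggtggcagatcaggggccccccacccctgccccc
Des: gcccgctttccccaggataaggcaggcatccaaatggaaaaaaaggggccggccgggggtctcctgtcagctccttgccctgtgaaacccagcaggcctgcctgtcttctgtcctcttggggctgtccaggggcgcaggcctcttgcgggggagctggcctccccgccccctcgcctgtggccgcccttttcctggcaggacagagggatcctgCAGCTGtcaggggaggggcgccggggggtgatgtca
Chad: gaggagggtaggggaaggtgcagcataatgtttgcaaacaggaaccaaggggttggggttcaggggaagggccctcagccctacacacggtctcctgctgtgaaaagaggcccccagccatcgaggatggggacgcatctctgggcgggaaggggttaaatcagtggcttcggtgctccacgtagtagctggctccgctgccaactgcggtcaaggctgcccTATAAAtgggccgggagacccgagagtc

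E10.5-only promoter regions were weak for promoters, and they spanned a wide range. Their signal value had a median of 616 (95% interval 578 to 647), with quartiles of 347 and 1176 and a range of 201 to 9494. Overlapping promoter regions had a median of 4976 and quartiles of 3161 and 7325. A signal under 500 was found in 795 E10.5-only regions, which is 41.4%. A signal of 2000 or more was found in 189 of them, 9.84%, and in 10288 overlapping promoter regions, 88.5%. A −log10 p of at least 5 was reached by 757 E10.5-only regions (39.4%) and by 97.3% of the overlapping ones. These values come from the list that the selection used and were not tested.

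Overlap with E11.5 rose with the signal value of the E10.5 promoter region. All E10.5 promoter regions were divided into 20 classes of signal that hold equal numbers of E10.5-only regions. In the 9 classes of lowest signal, up to a value of 546, between 7.69 and 20% of promoter regions overlapped an E11.5 region. In the class from 870 to 1016 the share was 50.5% (43.5 to 57.5%), and in the class above 2617 it was 99.0% (98.8 to 99.2%). Each region and gene group below is set beside promoter regions of the same signal, taken as the 200 nearest in signal value.

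**Figure D1:**
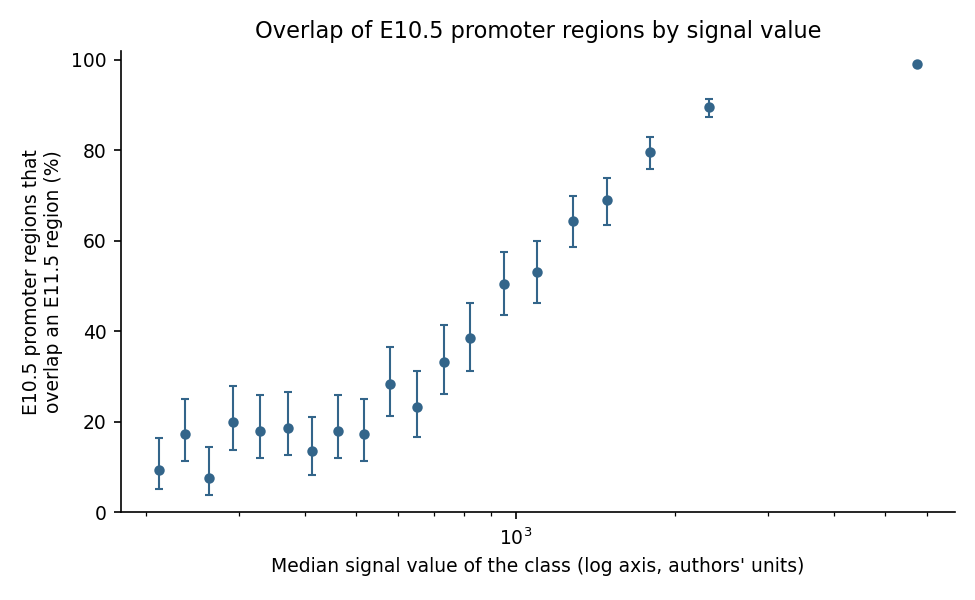
Share of E10.5 promoter regions that overlap an E11.5 region (vertical axis, percent, bars are 95% Wilson intervals) in 20 classes of signal value (log axis, class median). The share lies at 20% or below in the 9 lowest classes and reaches 99.0% in the highest.

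At the same signal, E10.5-only promoter regions were somewhat wider and had lower −log10 p than overlapping ones. Their median width was 612 bp (594 to 634), with quartiles of 405 and 927. Overlapping promoter regions had a median of 1542 bp as they stand and of 553 bp when weighted to the same distribution of signal, with quartiles of 379 and 804. The ratio of medians was 1.11, and the quartile ranges overlapped widely. E10.5-only regions were narrower by median in 4 of the 20 classes. Their median −log10 p of 4.64 compared with 4.86 at the same signal and was lower in 19 of 20 classes. Their signal per bp was 1.11 against 1.28, which at the same signal restates the difference in width. The direction of the width difference depends on the measure used for matching: at the same −log10 p, overlapping regions were the wider, with 725 bp, and the ratio was 0.844.

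The difference in width was larger among strong regions. Between signals of 2000 and 3000, the 116 E10.5-only regions of 1468 had a median width of 1435.5 bp, and overlapping regions 1081 bp. Between 3000 and 5000, 56 of 3213 were E10.5-only, with medians of 1932.5 and 1352 bp. Between 5000 and 10000, 17 of 4575 were, with medians of 2851 and 1869 bp. The wider regions were also the less significant: median −log10 p in these 3 steps was 6.71, 7.501 and 8.65, against 8.29, 10.05 and 11.8. The median signal within a step was also lower in E10.5-only regions, at 2401, 3582 and 5990 against 2534, 4018 and 6763.

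**Figure D2:**
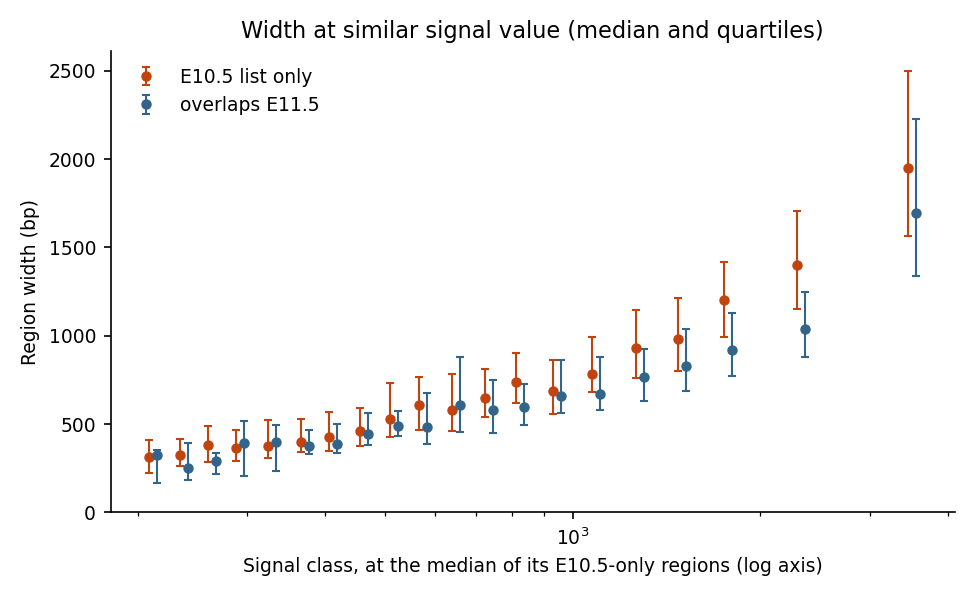
Width in bp (median and quartiles) of E10.5-only and of overlapping E10.5 promoter regions in the 20 signal classes, placed at the median signal of the E10.5-only regions (log axis). The E10.5-only medians lie above the overlapping ones in 16 classes, most clearly in the class from 1973 to 2616 (1399.5 against 1036 bp). In the highest class they are 1950 and 1696 bp, but its signals are less alike, with a median of 3511 in E10.5-only and 5741 in all regions.

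E10.5-only regions also sat differently on the promoter. They spanned the start site itself in 838 cases, 43.6% (41.4 to 45.9%), against 90.5% of overlapping promoter regions and 56.1% of those at the same signal. Another 532 (27.7%) lay wholly upstream and 551 (28.7%) wholly downstream, against 19.01 and 24.9% at the same signal. An E11.5 region lay within 500 bp of 340 of them (17.7%) and within 1 kb of 509. The median distance to the nearest E11.5 region was 6862 bp, 819 (42.6%) lay over 10 kb away, and 66 lay over 100 kb away. Start sites of 2 or more protein-coding genes, as at bidirectional promoters, were found in 43 E10.5-only regions (2.24%) and in 11.0% of overlapping ones.

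Counted by gene, 1777 of the 13809 genes with an E10.5 promoter region had at least 1 E10.5-only region, a share of 12.9%. In 1107 of the 1777 (62.3%) it was the sole E10.5 promoter region of the gene, and in 516 (29.0%) it stood beside an overlapping one. Some E11.5 promoter region was present at 483 of these genes (27.2%), and 1294 (72.8%, 70.7 to 74.8%) had none. Over all genes with an E10.5 promoter region, 1421 had none at E11.5, which is 10.3%. The share of 72.8% follows in large part from the selection and is not a separate result. Only the outer start of each gene was used here and below, so an E11.5 region at another start was not counted. With all starts of the RefSeq promoter table added, 1254 genes with an E10.5-only region had no E11.5 promoter region. En1 belongs to the genes that kept an E11.5 promoter region: its E10.5-only region (chr1:120602056-120602575, signal 621) spans the start site and ends 225 bp from an E11.5 region. The signals of the E10.5-only regions at 2 limb genes of the same kind, Lhx2, a homeobox gene of the distal mesenchyme, and Dlx3, of the ectoderm, were 265 and 1752, and the nearest E11.5 regions lay 161 and 524 bp away.

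The E10.5-only promoter region of highest signal lay at Sema3b, which encodes a secreted semaphorin that guides axons (chr9:107604778-107610264). It was 5487 bp wide, reached a signal of 9494 with a −log10 p of 10.04, and all of the promoter regions nearest in signal overlapped an E11.5 region. The region at Pitx1 (chr13:55835399-55837978), the homeobox gene that marks the hindlimb, followed among limb genes with a signal of 7629. It lies at the outer start of Pitx1, with an E11.5 region 3272 bp away, and other starts of the gene were not examined. At Hoxa5 (chr6:52202728-52206719) and Hoxc9 (chr15:102975426-102979397) the signals were 7542 and 7520, over widths of 3992 and 3972 bp. At signals like these 3, 99% of promoter regions overlapped. At the same −log10 p the shares were 97.5% for Pitx1, 89.5% for Hoxa5 and 72.5% for Hoxc9.

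Other regions among the 15 strongest lay at genes of unlike function. Lgals3bp (signal 7062) and Serpinf1 (6877) encode the secreted proteins named above, and Aatk (7037) encodes a kinase of neurons. Rara (5833) encodes retinoic acid receptor alpha, Ak1 (5630) the cytosolic adenylate kinase of muscle and brain, and Lin28a (5456) the RNA-binding protein that blocks let-7 maturation. The nearest E11.5 regions lay 887 bp away at Rara, 3084 bp at Ak1 and 15410 bp at Lin28a. Mymk (5501), or myomaker, is the membrane protein by which myoblasts fuse. Little is known of A530016L24Rik (8390), Ccdc182 (5680) and Tmem254a (5316). Near-identical copies of Tmem254a and of the splicing factor gene Cwc22 (5990) exist in the mouse genome, so reads at these genes may be shared between copies. At the same −log10 p, 98.5% or more of promoter regions overlapped for Sema3b, A530016L24Rik, Lgals3bp, Serpinf1, Rara, Ak1 and Tmem254a, and 43% did for Cwc22, whose region starts 899 bp from the start site and whose gene has an E11.5 promoter region.

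Regions that stood out by signal and −log10 p alike were few. Of the 1921 regions, 131 (6.82%) had a signal at which over 90% of promoter regions overlapped, and 65 (3.38%) also had a −log10 p at which over 90% did. These included Gdf5 (signal 4858, −log10 p 8.91), a joint-forming BMP-family signal, and Nr2f2 (4559 and 7.76), the nuclear receptor COUP-TFII of veins and mesenchyme. They also included Il16 (4752 and 8.87), a chemoattractant cytokine, Tagln (3328 and 9.40), the smooth muscle protein transgelin, Col6a3 (3104 and 8.30), a chain of collagen VI, and Cryab (3067 and 8.55), a small heat shock protein of lens and muscle. For these named regions, the nearest E11.5 region lay between 2279 bp away, at Nr2f2, and 16933 bp away, at Tagln. Eya2, a transcriptional coactivator of muscle precursors, had a signal of 3180 at which 100% overlapped, and 90% did at its −log10 p. Shisal1 (5112) and Ajm1 (4841), a protein of apical junctions, had signals at which 99.5% overlapped, and 98 and 73.5% did at the same −log10 p. The nearest E11.5 regions lay 68303 bp from the Shisal1 region and 319 bp from that of Ajm1. The E10.5-only region of Amotl2 (4371), an angiomotin-like protein of cell junctions, lay 974 bp from the start site of a gene that has an E11.5 promoter region.

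By gene class, the E10.5-only share ran from 4.27% of promoter regions of ribosomal protein genes to 91.7% of those of keratin genes, where the share over all classes is 14.2%. Of 27 classes made from gene symbols, 5 had a 95% interval above the share at the same signal. Keratin and keratin-associated genes had 22 E10.5-only of 24 promoter regions (91.7%, 74.2 to 97.7%), against 61.9% at the same signal. For serine proteases and serpins it was 17 of 32 (53.1% against 34.8%), and for homeobox genes 81 of 220 (36.8%, 30.7 to 43.4%, against 27.2%). Secreted signals had 65 of 217 (30.0% against 23.2%), and Fox, Sox, T-box and GATA genes 24 of 84 (28.6% against 19.3%). Zinc finger genes, with 45 of 559 (8.05% against 12.1%), and ribosomal protein genes, with 7 of 164 (4.27% against 9.52%), had intervals below. The ribosomal class includes the mitochondrial Mrpl and Mrps genes, which hold 4 of its 7 E10.5-only regions. At the same −log10 p, the intervals of keratin genes (66% at the same −log10 p) and zinc finger genes (11.0%) still stood apart and those of the other 5 classes did not. No test was made, and several genes of a class can share a locus, as the keratin and Hox genes do.

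The remaining 20 classes had intervals that held the share at the same signal. Their E10.5-only shares ran up to 40% for olfactory, vomeronasal and taste receptors, which rests on 4 of 10 regions. Immune receptors and antigens had 36 of 100, ion channels and ligand-gated receptors 81 of 261 (31.0% against 28.2%) and G protein-coupled receptors 53 of 193 (27.5% against 22.6%). Among the stronger regions in these groups were those of the toll-like receptor gene Tlr4 (signal 1915), the glutamate receptor genes Grik3 (4718) and Grm4 (4602), and the potassium channel gene Kcnk2 (3819). Low shares were found for ubiquitin and F-box genes, with 23 of 358 (6.42% against 8.44%), and heat shock and chaperone genes, with 5 of 82 (6.10% against 7%). Leading regions of further classes gave unequal shares by the 2 matchings. At Zfp503, a zinc finger repressor, the signal was 4034, with 98.5% overlapping at the same signal and 74.5% at the same −log10 p, and its gene kept an E11.5 promoter region. Arhgef39 (3990), an exchange factor of small GTPases, had 98 and 96.5%. The acid-sensing channel gene Asic4 (3046) had 95 and 42%, and the taste channel gene Trpm5 (2825) had 96 and 98%. The receptor genes Gabbr2 (3081), for GABA, and Htr6 (2996), for serotonin, had 96 and 84% and 97 and 81.5%. By far the most E10.5-only regions, 1034, lay at genes outside all named classes, where they made up 11.6% of 8882 promoter regions against 12.3% at the same signal.

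**Figure D3:**
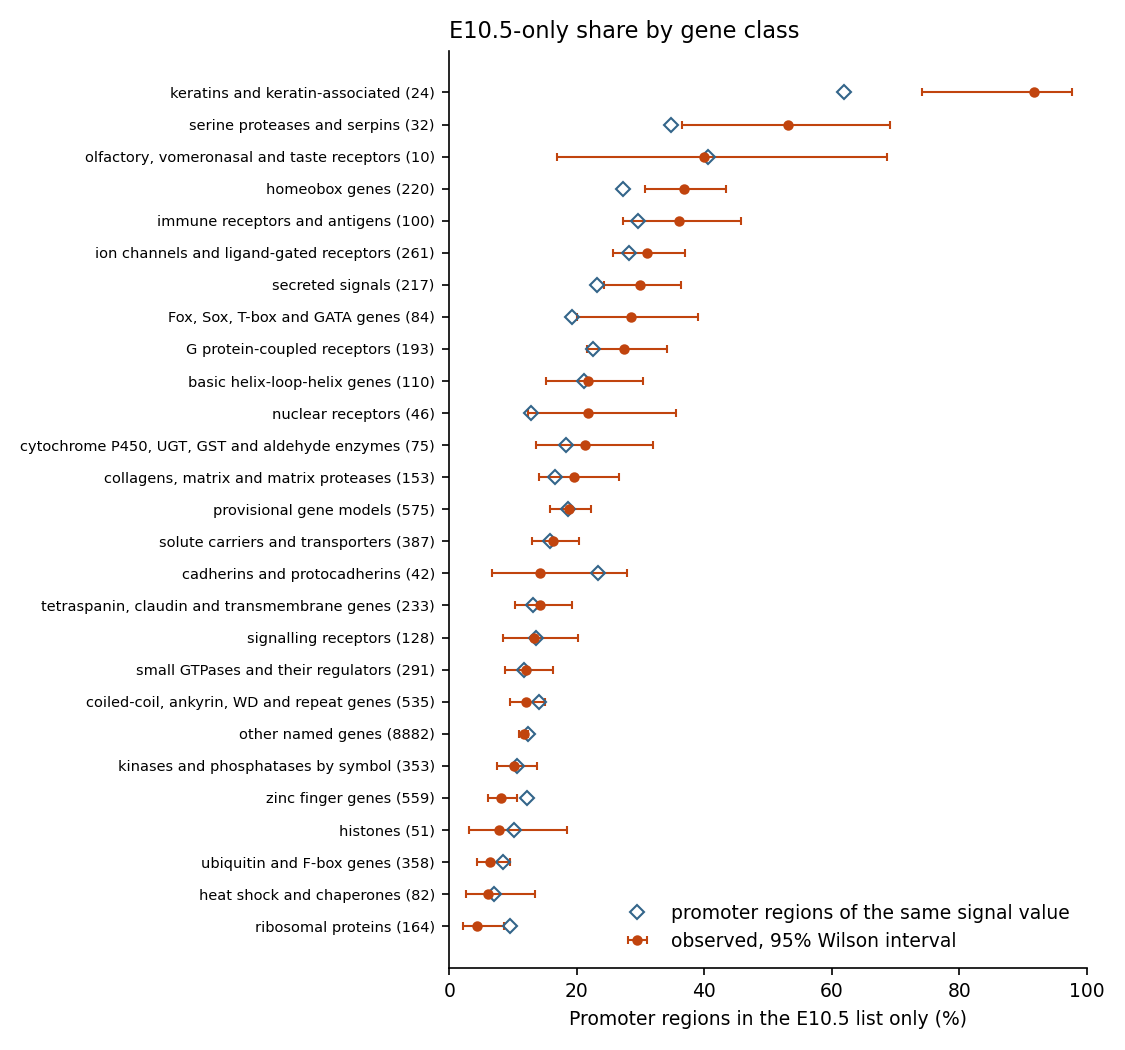
E10.5-only share of E10.5 promoter regions in 27 gene classes (filled points, percent, with 95% Wilson intervals) and the share at the same signal value (open diamonds), with the number of promoter regions in brackets. Keratins stand highest at 91.7% against 61.9%, and ribosomal proteins lowest at 4.27% against 9.52%.

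Tissue roles were read from 21 lists of genes, counted as genes with an E10.5 promoter region that have no E11.5 promoter region, against 10.3% over all genes. The shares spread widely between tissues. They were highest for differentiated skin and hair (8 of 11 genes, 72.7%), skeletal muscle (11 of 18) and eye and ear (11 of 18), and 0 for the cytosolic ribosome (0 of 27, which allows a share of up to 12.5% by its Wilson interval) and for the proteasome, spliceosome and polymerase genes (0 of 33, up to 10.4%). Among genes of the same strongest signal the shares were 51% for the skin and hair list, 33.9% for the muscle list, 35.1% for the eye and ear list, and 5.11 and 4.47% for the last 2. The 95% interval lay above the share at the same signal for 4 lists, surface ectoderm, skeletal muscle, eye and ear, and cartilage and bone, and for none of these at the same −log10 p. A gene may be on more than one list. Not every gene counted has an E10.5-only region. Where it has none, its E10.5 promoter region overlapped an E11.5 region further than 1 kb from the start site. Genes with one were 13 of the 15 in surface ectoderm, 5 of 6 limb regulators and 10 of 11 in skeletal muscle. They were 8 of 10 synapse genes, 4 of 5 in kidney and 3 of 4 in liver, and all in the other lists.

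**Figure D4:**
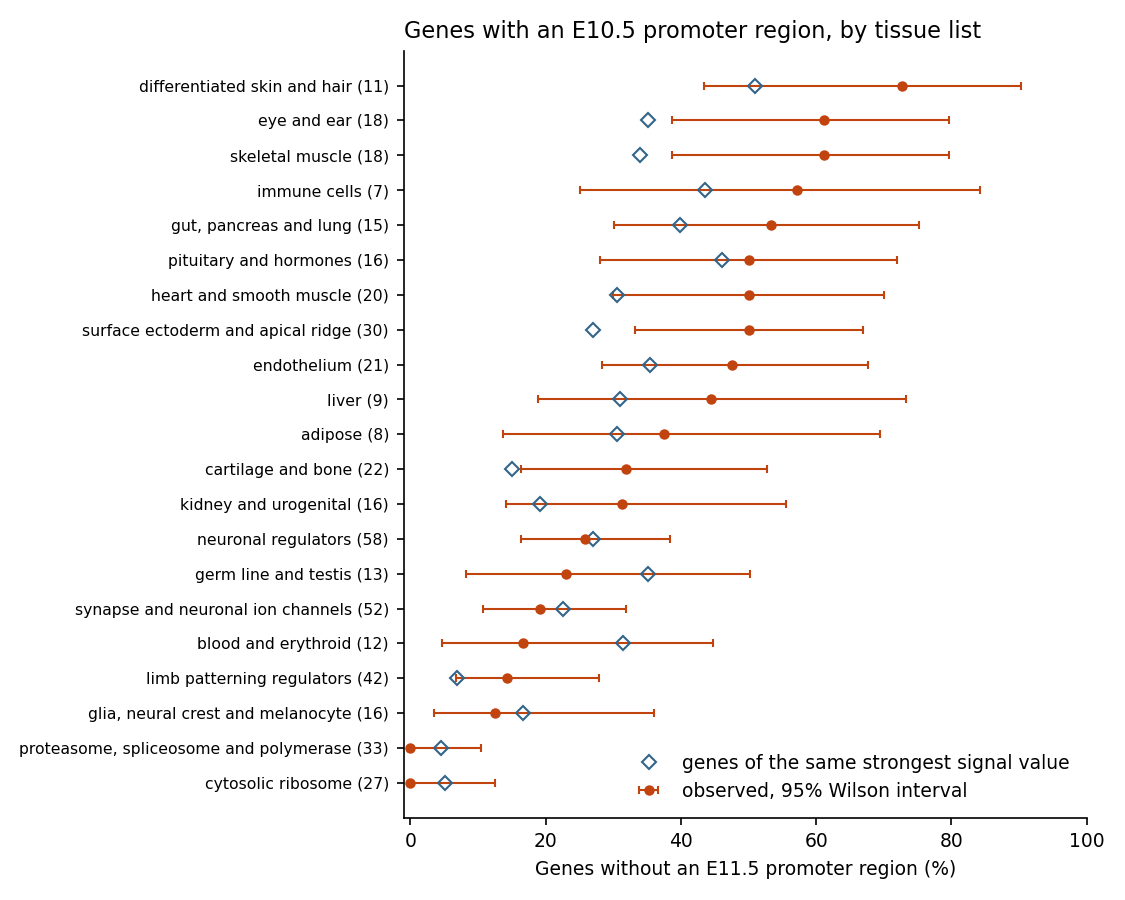
Share of genes with an E10.5 promoter region that have no E11.5 promoter region (filled points, percent, 95% Wilson intervals) for 21 tissue lists, with the share among genes of the same strongest signal value (open diamonds) and the number of genes in brackets. Surface ectoderm, skeletal muscle, eye and ear, and cartilage and bone lie to the right of their diamonds by more than their interval.

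Genes of the surface ectoderm and its apical ridge were among those without an E11.5 promoter region in 15 of 30 cases, against 8.08 at the same signal and 10.54 at the same −log10 p. Of the ligands, Wnt7a (chr6:91410531-91412205) had a signal of 3300, with 98% of promoter regions of the same signal overlapping and 96.5% at the same −log10 p. Fgf8 (chr19:45740943-45743891), the main FGF of the apical ridge, had 2637, with 93.5 and 52.5%. Wnt3 (chr11:103771141-103774614), the Wnt that starts the ridge, shares a broad region of signal 3407 with the neighbouring Wnt9b, with 97 and 39%. Fgf4 (316) and Wnt10a (289), also ridge signals, had weak regions, with 20 and 16.5% overlapping at the same signal and 10% each at the same −log10 p.

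The regulators and structural genes of the ectoderm had weaker E10.5-only regions. Grhl2, the grainyhead factor of epithelia, had a signal of 1973, and Tfap2a and Tfap2b, AP-2 factors of ectoderm and neural crest, had 1158 and 422. Pkp1, a desmosome protein, had regions of 1962 and 852, and the claudin gene Cldn4, of tight junctions, had 1610. Krt14 and Krt5, the keratin pair of basal epidermis, had 320 and 246, near the lower bound of the list. The E10.5-only region of Krt8, a keratin of simple epithelia (560), lay 690 bp from the nearest E11.5 region, at a gene that has an E11.5 promoter region, as do Grhl3 (1175) and Esrp1 (235), an epithelial splicing factor.

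Among 42 limb patterning regulators with an E10.5 promoter region, 6 had none at E11.5, against 2.90 at the same signal and 4.73 at the same −log10 p. E10.5-only regions were present at 7 of the 42, of which Wnt7a, Fgf8, Fgf4, Pitx1, En1 and Lhx2 are described above. The other is Tbx5, the T-box gene of the forelimb, with regions of signal 1769 (chr5:119796461-119798058) and 1060 (chr5:119795406-119796200). At these signals 82.5 and 54% of promoter regions overlapped, and at the same −log10 p 40 and 38.5% did. For these regions the nearest E11.5 regions lay 47023 and 48881 bp away. The limb regulators thus include both strong and weak regions, and their median strongest signal of 7870 was well above that of any other list.

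Of the ligand families, counted after their values had been seen, Wnt genes stood out most. No E11.5 promoter region was found for 10 of 17 Wnt genes with an E10.5 one, against 3.81 at the same signal and 5.41 at the same −log10 p. E10.5-only regions were found at Wnt1, Wnt3, Wnt3a, Wnt7a, Wnt8a, Wnt9b, Wnt10a and Wnt10b but not at the other 2, Wnt7b and Wnt11, with signals from 206 at Wnt3a to 3503 at Wnt10b and a median of 374. For Fgf genes the count was 5 of 19, against 4.20, and it comprises Fgf1 (1344), Fgf4, Fgf8, Fgf17 (2170) and Fgf21 (666). Among Bmp and Gdf genes it was 1 of 14, namely Gdf5, and among semaphorin genes 2 of 19.

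Structural families of epithelia showed counts of the same kind. No E11.5 promoter region was found for 14 of 16 keratin genes, against 9.24 at the same signal and 9.33 at the same −log10 p, and for 7 of 12 claudin genes, against 3.395 and 4.475. The keratin regions were mostly weak, with a median signal of 437. The strongest belonged to Krt7 (2888), of simple epithelia, Krt35 (2001), of hair, and Krt17 (1839), of skin appendages. Claudin signals ran from 271 at Cldn7 to 4711 at Cldn9, with Cldn3 at 1899. The proteases of epithelial surfaces Prss8 (2058), or prostasin, and St14 (1602), or matriptase, which activates it, were E10.5-only as well.

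For skeletal muscle, the genes without an E11.5 promoter region numbered 11 of 18, against 6.11 at the same signal and 7.69 at the same −log10 p. The 10 of them with an E10.5-only region have roles at different steps of the lineage. Pax3 (1062) and Pax7 (regions of 611 and 437) mark the precursors, Myf5 (2065 and 320) and Myog (1087) are myogenic determination and differentiation factors, and Mymk (5501) acts at fusion. Des (1142), Actc1 (337), Tnnt1 (559), a slow troponin T, and Ckm (227), the muscle creatine kinase, are structural or metabolic genes, and Chrnd (862) is an acetylcholine receptor subunit. The nearest E11.5 regions lay between 1267 bp, at Mymk, and 209715 bp, at Pax7. Only Mymk had a signal at which over 95% of promoter regions overlapped, and 97% did at the same −log10 p. Other genes of the lineage, among them the precursor markers Lbx1, Myod1 and Met, kept an E11.5 promoter region.

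Cartilage and bone genes had no E11.5 promoter region in 7 of 22 cases, against 3.30 at the same signal and 4.77 at the same −log10 p. Gdf5 had an E10.5-only region over its start site, of signal 4858 (chr2:155943275-155945467), and another upstream, of signal 1867 (chr2:155945595-155946790). Matn4 (2644) and Col11a2 (2482) encode cartilage matrix proteins, at signals where 94.5 and 89.5% of promoter regions overlapped, and at the same −log10 p 93 and 44% did. Ihh (1275), the hedgehog of growth cartilage, Sp7 (1137) and Runx2 (455), regulators of osteoblasts, and Col9a1 (408) had weaker regions. Chad, on no list, had a signal of 3319, where 97.5% overlapped, against 81.5% at the same −log10 p.

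Vessel genes were less far from the level at the same signal. Of 21 endothelial genes, 10 had no E11.5 promoter region, against 7.45 at the same signal and 9.04 at the same −log10 p. Their strongest region belonged to Ecscr (3364), an endothelial surface protein, followed by Notch4 (1620), the Notch receptor of endothelium, the connexin gene Gja5 (1058) and Mmrn2 (1001). Receptor and adhesion genes that define endothelium had weak regions, with 386 at Tie1 and at Cdh5, which encodes VE-cadherin, 230 at Eng and 231 at Plvap. Blood and erythroid genes were at 2 of 12, against 3.78, namely Gata2 (1967) and Gfi1b (988 and 348).

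Among genes of heart and smooth muscle, 10 of 20 had no E11.5 promoter region, against 6.10 at the same signal and 6.94 at the same −log10 p. The regulators Gata5 (2769) and Hand1 (2061) had the strongest regions after Tagln (3328). Contractile genes were weaker, with 976 at Acta2, 771 at Myh6 and 545 at Tnnt2. Of other transcription factor genes, Foxl1 (2377), Tbx1 (2405) and Foxs1 (2148), of the Fox and T-box families, had regions at whose signal 90% of promoter regions overlapped. At the same −log10 p the shares were 54, 80.5 and 96.5%, and Tbx1 kept an E11.5 promoter region.

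Neuronal genes did not exceed the level at the same signal. Of 58 neuronal regulators, 15 had no E11.5 promoter region, against 15.7, and of 52 synapse and ion channel genes 10 had none, against 11.7. An E10.5-only region was present at 24 of the 58 regulators, and 9 of these genes kept an E11.5 promoter region. Weak examples of this kind are Eomes (203), Otx1 (292) and Gbx2 (224), with E11.5 regions 166, 87 and 251 bp away. The stronger ones were Gsx2 (2465), Isl2 (1620) and Pax2 (1228), which encode transcription factors of forebrain, of motor neurons, and of kidney and hindbrain. Grin2a (2047) and Th (1862), the enzyme of dopamine synthesis, led the synapse list. Glial genes were at 2 of 16, with Sox10 at a signal of 246.

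Genes of organs outside the limb were also present. Eye and ear genes without an E11.5 promoter region numbered 11 of 18, against 6.31 at the same signal and 7.42 at the same −log10 p. They include Gnat1 (1437 and 638), which encodes a transducin subunit, the lens genes Cryab (3067), Bfsp2 (1524) and Mip (1198), and the eye field gene Rax (1672). Hormone and neuropeptide genes were at 8 of 16, against 7.36, with Lhb at 1572 and Gal at 1512. Gut, pancreas and lung genes were at 8 of 15, against 5.99, with Ppy, pancreatic polypeptide, at 1855 and Cdx1 at 1029. Kidney genes were at 5 of 16 (3.07), liver genes at 4 of 9 (2.79), immune genes at 4 of 7 (3.05), germ line genes at 3 of 13 (4.58) and adipose genes at 3 of 8 (2.44), where the number at the same signal stands in brackets.

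Hox genes, the positional homeobox genes arranged in 4 clusters, made up 28 of the E10.5-only regions out of 53 Hox promoter regions. Of 38 Hox genes with an E10.5 promoter region, 16 had none at E11.5, against 5.22 at the same signal and 6.30 at the same −log10 p. At Hoxc11 and Hoxd11 the E10.5 region overlapped an E11.5 region further than 1 kb from the start site. The E10.5-only regions were mainly at the 3′ genes, of paralog groups 1 to 8, with 23 of 36 regions, while groups 9 to 13, which pattern the limb's distal parts, had 5 of 17. Overlapping regions of groups 9 to 13 had a median signal of 10031, against 4314 in groups 1 to 8, so the groups differ in strength too. Paralog grouping was chosen after the values had been seen.

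By cluster, E10.5-only regions were 12 of 15 in HoxB, 6 of 11 in HoxC, 7 of 17 in HoxA and 3 of 10 in HoxD. HoxB was the weakest cluster, where the overlapping regions had a median signal of 1348, and Hoxb9 (3518) had its strongest E10.5-only region. At Hoxb1, Hoxb2 and Hoxb3 all promoter regions were E10.5-only, with signals of 772, from 375 to 1964, and 659. In HoxA, all promoter regions of Hoxa2, Hoxa5 and Hoxa6 were E10.5-only, while Hoxa3 and Hoxa7 had overlapping regions of 11222 and 15480. In HoxC, the Hoxc9 region was E10.5-only and those of Hoxc10 (8896) and Hoxc6 (10595) overlapped. Hoxc8 had E10.5-only regions of 495 and 1256, and Hoxc4 of 1652 and 1746. In HoxD, the E10.5-only regions were all 3 at Hoxd4, with signals of 427, 1214 and 504. Start sites are the outer ends of genes throughout, which bears on any gene with further starts and, among Hox genes, matters for paralog group 3. The region counted for Hoxa3 lies between those of Hoxa6 and Hoxa7. That of Hoxb3 lies between Hoxb5 and Hoxb4, and that of Hoxd3 between Hoxd8 and Hoxd4. Starts nearer to the place of group 3 in the clusters were not used for these genes.

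Markers of cell types were checked at each stage for promoter regions within 1 kb of the outer start of the gene. Limb mesenchyme markers had one at 12 of 12 genes at the earlier stage and at 10 at the later, Tbx5 and Pitx1 being the exceptions, and cartilage markers at 5 of 6 at each stage. Ectoderm and ridge markers went from 10 of 12 to 4, muscle precursor markers from 6 of 6 to 3, nerve and glia markers from 7 of 7 to 4, and endothelial markers from 5 of 8 to 3. Blood markers went from 4 of 6 to 5. Of the defining markers, Trp63, Sp6, Tek, Pecam1, Emcn, Spi1, Hbb-bt and Matn1 had no E10.5 promoter region at that start. Other starts of the markers were not examined at either stage. Many markers, such as Krt5, Fgf8, Wnt7a, Pax3, Myf5, Sox10 and Isl2, are also on the tissue lists, so the markers are no separate evidence for them. The part of cell composition in the results was not tested.

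Over the autosomes, the E10.5-only share of promoter regions ran from 10.4% on chromosome 3 to 18.1% on chromosome 11. Chromosome 3 held 70 E10.5-only of 672 promoter regions (8.33 to 12.96%), against 13.13% at the same signal. Chromosome 11 held 205 E10.5-only of 1134 promoter regions (15.9 to 20.4%), against 15.3% at the same signal, and 30 of the 189 regions of signal 2000 or more. It carries the HoxB cluster, with 12 E10.5-only regions, and a large keratin cluster. Their part in the share of this chromosome was not tested.

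The bounds of the selection fall among weak regions. Just inside the distance of 1 kb, at 1000 bp from the start site, were the regions of Cetn4 (signal 213), Skor1 (528) and Catip (220). Just outside, at 1001 bp for Wbp1 (805) and Tgfa (454) and 1003 bp for Myl3 (896), lay regions that were not counted. The E10.5-only regions nearest to an E11.5 region were those of Crebzf and Glrx, 10 bp away, and Pappa, 13 bp away. The overlapping promoter regions with the smallest overlap belonged to Tmem184a (14 bp), Tbc1d32 (37 bp) and Epha3 (40 bp).

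The lists are asymmetric at promoters. At E11.5, 12040 of 36384 autosomal regions were promoter regions, and 136 of them (1.13%) overlapped no E10.5 region. Outside promoters, 64556 of 84192 autosomal E10.5 regions (76.7%) lacked an E11.5 overlap, and over all autosomal E10.5 regions 66477 (68%) had none. Promoter regions thus made up 2.89% of the E10.5 regions without overlap.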

How the data were processed

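Accessible chromatin was measured by ATAC-seq in 4 wild-type samples, 2 at E10.5 and 2 at E11.5, grouped by their titles. The deposited files are 2 peak lists in narrowPeak format on mm10, per the file headers. Each carries the names of its stage's 2 replicates. Per the submitters' processing notes, cutadapt, Bowtie2, SAMtools, deepTools and Genrich were used. Their settings, their versions, any shift of read ends and the way replicates were joined are not given in the sources used here. The authors' deposited signal value and −log10 p-value of each peak were used to describe and rank peaks. The deposited score is signal per bp on a capped scale and was not used. The q-value column is deposited with a placeholder throughout.

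Gene starts are the outer ends, by strand, of protein-coding genes in a RefSeq table of GRCm38.p6. Strand came from the RefSeq promoter table for 16457 genes and from GENCODE M1 by symbol for 3907, which covers 98.5% of 20665 autosomal genes. Only 1 start per gene was used, and exons and untranslated regions were not. Coordinates are 1-based. Regions overlap when they share at least 1 bp. Shares at the same signal or −log10 p come from the 200 nearest promoter regions (or genes, by their strongest region), and distributions were weighted over 20 signal classes. The overlap code was tested on simulated regions. Python 3.11.15, pandas 2.3.3 and NumPy 2.4.6 were used. Because each list joins its replicates, no test, spread or depth per sample could be computed.

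The members, the gene lists and the gene classes were chosen with earlier results of these data known. Named are the 15 regions of highest signal, the 5 others with the highest overlap share at their signal, the 4 strongest of each class and list, listed genes above the median signal of promoter regions (4397), and the 3 on either side of the 1 kb bound. The smallest distance, 0, is shared by all regions that span a start site, so the text singles out none for it. The text names part of the regions this rule selects, mainly the stronger ones, and gives the rest by counts. One gene that the rule selects is not reported here. The gene families, the matching of classes, lists and families on −log10 p, the printed promoters, the CArG and CAGCTG motifs and the other genes named were chosen after their values had been seen. Alternatives changed the −log10 p threshold, the number of regions, the overlap rule, the promoter window, the start sites and the matching measure.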

Additional observations from a re-analysis of the deposited data

Results flagged for a closer look

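Regions on the sex chromosomes entered none of the comparisons above. On chromosome X, 35 of 462 E10.5 promoter regions (7.58%) overlapped no E11.5 region, which exceeds the 3 counts (0.649%) that a count of 0 would allow and is listed for that reason alone. On chromosome Y the count was 3 of 5.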

How the results depend on the processing

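No paired analysis was possible because the deposited lists hold no values per replicate, which also leaves no way to omit a replicate. The depth is unknown and limits how far a missing E11.5 region can be read. Over 10 alternative settings and 6 results, 26 of 54 values kept to the main value's interval, or to within 1.5 times for counts, 27 moved and 1 reversed. The main values were a share of 14.2%, 1921 regions, 1294 genes without an E11.5 promoter region, a width ratio of 1.11, 43.6% spanning the start site and 6.72% at homeobox, helix-loop-helix, Fox, Sox, T-box and GATA genes. The planned comparison of CpG content was not run, since a promoter sequence was at hand for the nearest gene of 1456 of 1921 regions (75.8%), under the 80% set as the minimum.

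Matching on −log10 p in place of signal reversed the width ratio to 0.844. Of 179 named regions, 124 moved in their overlap share under that matching, and the share was lower for 128. E10.5 regions with −log10 p of at least 5 gave 6.27%, 757 regions, 628 genes and 54.0% spanning, and the same threshold in both lists gave 15.2%, 1832 regions, 1662 genes, a width ratio of 1.22 and 68.1%, where E11.5 regions are removed as well. With the E10.5 list reduced to the E11.5 number by signal, these were 3.71%, 423 regions, 382 genes, 1.28 and 65.2%.

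Counting an E11.5 region within 500 bp as overlap gave 11.7% and 51.4% spanning. Requiring summits within 250 bp gave 23.5%, 3177 regions, 1.18, 60.1% spanning and 5.63% at the transcription factor classes. A promoter window of 500 bp gave 10.4% and 65.0% spanning, and regions that must span the start site gave 7.38%, 838 regions, 844 genes and 1.20. Adding all starts of the RefSeq promoter table gave 16.2% and 46.4%. The causes were not tested. The width ratio stayed above 1 in each setting run other than matching on −log10 p.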
